A study of Mus musculus with 20 samples.

Results

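Sostdc1, Bmp7 and the receptors Bmpr1a, Bmpr2, Acvr1, Lrp5 and Lrp6 were followed across 12 groups of sorted mouse CD4 T cells on 20 one-colour Agilent arrays. These 7 genes were chosen by their symbol in the scanner files, out of 14321 genes tested, and the set was put together with their levels on these same arrays already known. The levels are therefore given as a description, and no test was made on the members. They are measured by 11 probes, of which 10 passed the detection filter. Detection on an array required 3 or more of the 4 printed features of a probe to be well above background, and the filter kept probes with detection on both arrays of some group of 2.

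All mice carried the Foxp3 reporter allele of the strain B6.Cg-Foxp3<tm1Mal>, in which cells that express Foxp3, the lineage factor of regulatory T cells, are green. RNA came from cells pooled from 8 to 15 mice of both sexes, aged 8 to 14 weeks. Peripheral lymph nodes (pLN) were taken 12 days (d12) and 25 days (d25) after immunisation with the protein KLH in alum, and the cells of Peyer's patches (PP), the lymphoid follicles of the gut wall, have no immunisation in their labels. In pLN the sorted fractions were naive T cells, Foxp3+ regulatory T (Treg) cells, Foxp3- T follicular helper (TFH) cells with high PD1 and the GL7 epitope, and Foxp3+ T follicular regulatory (TFR) cells with high PD1. PP gave TFH cells with and without GL7 (GL7+ and GL7-), together with Treg and TFR cells, and no naive fraction. TFR cells of both tissues are labelled GL7+/-, so TFR and GL7+ TFH cells also differ in this gate. Each group of pLN d12 and of PP had 2 arrays and each group of pLN d25 had 1. The labels do not say whether mice are shared between pools, so the spread between arrays may be partly technical. Values are normalised intensities, floored at 20, and log2 differences are between group means of log2 intensity with the standard error (SE) of the fit over all 20 arrays. An array of pooled cells cannot tell more expressing cells apart from more RNA per cell.

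Sostdc1 encodes a secreted protein that binds bone morphogenetic proteins (BMPs) and also the WNT co-receptors Lrp5 and Lrp6, and it is known as an inhibitor of both pathways. Bmp7 encodes a secreted BMP ligand. BMP ligands signal through a complex of type I receptors, among them Bmpr1a and Acvr1, with a type II receptor such as Bmpr2, and the active complex phosphorylates SMAD proteins that switch on targets of the Id family. WNT ligands act on Frizzled receptors together with Lrp5 or Lrp6, which stabilises beta-catenin for the transcription factors Tcf7 and Lef1.

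The array sequences that read the 3 genes with the clearest differences between groups are shown by the first 30 bases of each 60-base probe, 5′ to 3′, because agreement or conflict between probes of a gene bears on its values. No base is marked. Positions are those of the array annotation on mouse assembly mm9, and the files do not say which exon a probe lies in.
Sostdc1 probe 1: tttttccagtctcagtgtgaaattatcccc
Sostdc1 probe 2: tctcaagatgtaatgagtagtttgcagtga
Bmp7 probe 1: gctggcgtctgtgttgaagggaaaccaagc
Acvr1 probe 1: acgctgtggggggaaatgcatcttcttcgg
Acvr1 probe 2: attaagacagtggctctctgcgtatctttc
Acvr1 probe 3: tgttgtatctgcgtgtatttctacaccaca
The Sostdc1 probes lie on the plus strand at chr12:37044532-37044591 and chr12:37044197-37044256, with 275 bases between them. The Bmp7 probe lies on the minus strand at chr2:172695203-172695262. The Acvr1 probes lie on the minus strand of the same chromosome at chr2:58298937-58298996, chr2:58299580-58299639 and chr2:58295955-58296014, and the third was designed on a separate transcript record. The other members are read at chr14:35224339-35224398 (Bmpr1a), chr1:59927276-59927335 (Bmpr2), chr19:3584971-3585030 (Lrp5) and, for Lrp6, chr6:134400440-134400499 and chr6:134404723-134404782. Probes of a gene are numbered by their mean intensity, and levels of different probes or genes are not compared.

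Before the members are described, the PP arrays need a remark. The arrays lay on 5 slides of 4, each with the 4 groups of 1 tissue and day, so tissue cannot be told apart from slide, nor d25 from slide 3. Slide 4, with the first replicate of every PP group, carried transcripts of other cells: all 4 of its arrays had 8 or 9 of 9 epithelial markers detected, with a summed intensity of 13685 to 38454 against 494 to 2436 on the other slides. Its 13 B cell markers summed to 25308 to 176280, against 4596 to 26348 elsewhere; the lower end overlapped with slide 1. The 6 T cell markers were detected on every array, with sums of 475703 to 942857, and the 5 regulatory markers were all detected on the Treg and TFR arrays of pLN d12 and PP, with sums of 58481 to 109464. On slide 5, 5 to 7 of the 9 epithelial markers were detected, against 1 to 4 on the pLN slides. Its 7 myeloid and dendritic markers summed to 21650 to 32550, against 8283 to 20502 on the other slides. Because of slide 4, differences of the members that use PP arrays are also given without it, which leaves the signal of slide 5 in place.

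Sostdc1 was very high in TFH cells of both tissues and in TFR cells of PP, and low in naive T and Treg cells. In pLN d12 TFH cells probe 1 read 91156 and 51058, and the d25 array read 74679. PP GL7+ TFH cells had 91914 and 42446, and PP GL7- TFH cells had 80507 and 39051. Ranges of neighbouring TFH groups overlapped with this probe, so their order is not resolved.

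TFR cells differed by tissue. The pLN d12 TFR arrays read 1203 and 1021 and the d25 array read 1181, whereas the PP TFR arrays read 43577 and 31136. Every PP TFR array was above every pLN TFR array, and the higher of the PP TFR arrays lay inside the range of PP TFH cells. The PP mean was 37356 ± 8797 (SD, n = 2) against 1112 ± 129 (SD, n = 2) in pLN d12, a log2 difference of 5.05 (SE 0.80) or 33.2-fold. With slide 5 as the only PP slide the log2 difference was 4.81. The TFR fractions of the tissues also differed in other markers. The 6 follicular markers summed to 140315 to 169225 in pLN TFR cells and 402789 to 487609 in PP TFR cells. The 4 naive markers summed to 79227 to 114618 in pLN and 16405 to 25607 in PP. Whether the Sostdc1 difference goes beyond this was not tested.

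Treg cells lay at the bottom of the order. Probe 1 read 57.6 and 64.1 in pLN d12 Treg cells and 49.5 at d25, and only the first of these arrays was above background. PP Treg cells read 338 on slide 4 and 53.0 on slide 5. The PP Treg array that stood higher was the one with 38454 as the sum of epithelial markers and 116483 as the sum of B cell markers, against 1445 and 14901 on slide 5. Their part in the higher Sostdc1 reading was not tested. The log2 difference between PP and pLN d12 Treg cells was 1.14 (SE 0.80), and -0.20 without slide 4, so no direction is given.

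Naive T cells had a low but detected signal, 113 and 314 at d12 and 237 at d25. All 3 naive arrays were above the 3 pLN Treg arrays, and the d12 log2 difference between Treg and naive T cells was -1.63 (SE 0.80). With probe 2, which was not detected on either Treg array, naive T cells were at least 3.18-fold higher.

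The steps from naive T to TFH cells and from Treg to TFR cells were large on every slide that held both fractions. TFH cells exceeded naive T cells 363-fold at d12 by group means (log2 difference 8.50, SE 0.80), with 808-fold on slide 1 and 163-fold on slide 2, and 315-fold at d25. Within pLN, TFR cells were lower than TFH cells 75.8-fold on slide 1, 50.0-fold on slide 2 and 63.2-fold on the d25 slide. Within PP the same difference was 2.11-fold on slide 4 and 1.36-fold on slide 5. TFR cells were nevertheless above Treg cells on all 5 slides, by 20.9-fold on slide 1 and by 129-fold and 587-fold in PP. On slide 2 and at d25, where the Treg array was not above background, the TFR array was at least 11.3-fold and at least 8.20-fold higher. The paper gives only a lower limit for the usual purity of its sorts. The part of carried-over TFH cells in the low pLN TFR and naive readings was not tested.

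Among the 22264 probes tested, the difference of probe 1 between PP TFR and Treg cells was in place 1 by size, and its difference between pLN d12 TFR and TFH cells was in place 1 among those lower in TFR cells. For TFH against naive T cells of pLN d12 it was in place 2, and for Treg against naive T cells in place 783 by size. These places are a description, since the gene was chosen with its levels known. Carriage of the GL7 epitope went with no large step. GL7+ and GL7- TFH cells of PP differed by 0.16 (log2, SE 0.80), with overlapping ranges, and by 0.12 without slide 4. Within slide 4 the difference was 0.19, and the SE also holds the spread between slides.

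Probe 2 gave the same order of fractions, with a Pearson correlation to probe 1 of 0.997 over the 20 arrays, which share slides and normalisation. It read 28445 ± 5536 (SD, n = 2) in PP TFR cells and 1164 ± 251 (SD, n = 2) in pLN d12 TFR cells, a log2 difference of 4.61 (SE 0.81), or 4.41 without slide 4. In Treg cells of pLN it was below background, so pLN d12 TFR cells were at least 18.3-fold and TFH cells at least 1103-fold above them.

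**Figure D1:**
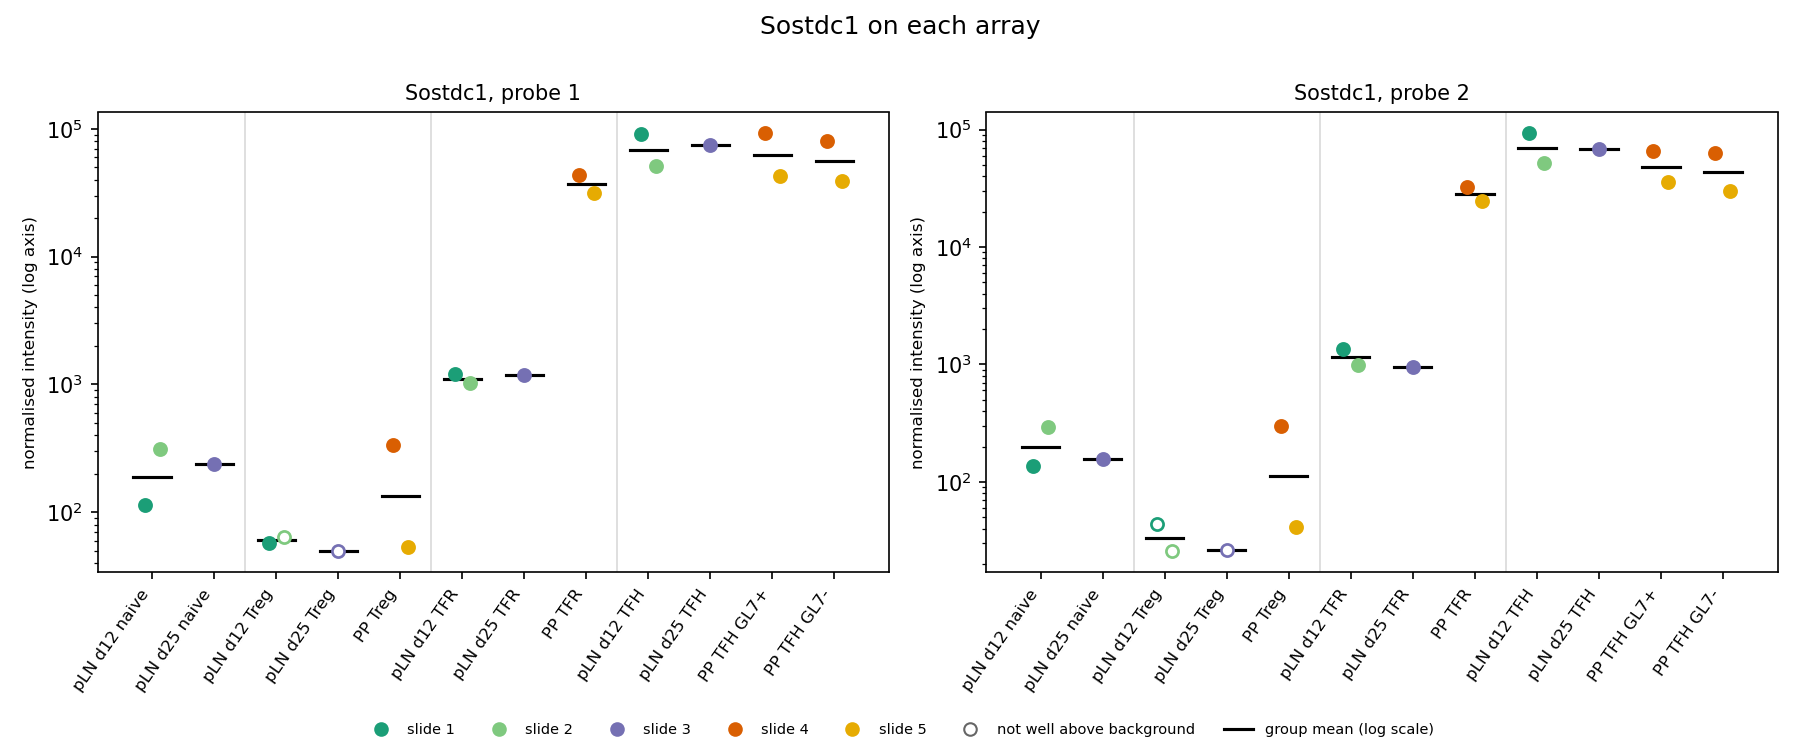
Normalised intensity (log axis) of the 2 Sostdc1 probes on each of the 20 arrays, by group; points are arrays coloured by slide, open points were not well above background, and bars are means on the log scale. TFR cells of pLN sit near 1000 with both probes, those of PP between 24531 and 43577, and TFH cells of either tissue between 30126 and 92855.

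Bmp7 separated naive T cells from every other fraction. Naive T cells read 144 and 415 at d12 and 521 at d25. Treg cells of pLN read 4168 and 2793 at d12 and 3182 at d25, and PP Treg cells read 2535 and 1951. Every Treg array was above every naive array and below every TFH and TFR array. Bmp7 was detected on all 20 arrays, and the median coefficient of variation of its 4 printed features was 2.39%.

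In follicular cells Bmp7 moved in a narrow range. TFH cells of pLN read 5655 and 5981 at d12 and 8188 at d25, while PP GL7+ TFH cells read 8005 and 8883 and PP GL7- TFH cells 7090 and 8418. TFR cells read 6275 and 6607 in pLN at d12, 7014 at d25, and 5644 and 7023 in PP. All 12 follicular arrays lay between 5644 and 8883.

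By group means, pLN d12 TFH cells were 23.8-fold above naive T cells (log2 difference 4.57, SE 0.40) and Treg cells 14.0-fold (log2 difference 3.81, SE 0.40). The size of the step depended on the naive array: TFH cells were 39.4-fold above naive T cells on slide 1, 14.4-fold on slide 2 and 15.7-fold at d25. TFR cells stood above Treg cells by less, 0.92 (log2, SE 0.40) in pLN d12 and 2.83-fold by group means in PP (log2 difference 1.85 without slide 4), and were the higher on all 5 slides, by 1.51-fold to 3.60-fold.

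The tissue difference that Sostdc1 had in TFR cells was not seen in Bmp7. PP and pLN d12 TFR cells differed by -0.03 (log2, SE 0.40) with overlapping ranges, and by 0.13 without slide 4. The 2 differences were not tested against each other, since the genes were chosen on these levels. PP GL7+ TFH cells were above pLN d12 TFH cells by 0.54 (log2, SE 0.40), or 0.61 without slide 4, and the d25 array of pLN TFH cells lay inside the PP range.

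**Figure D2:**
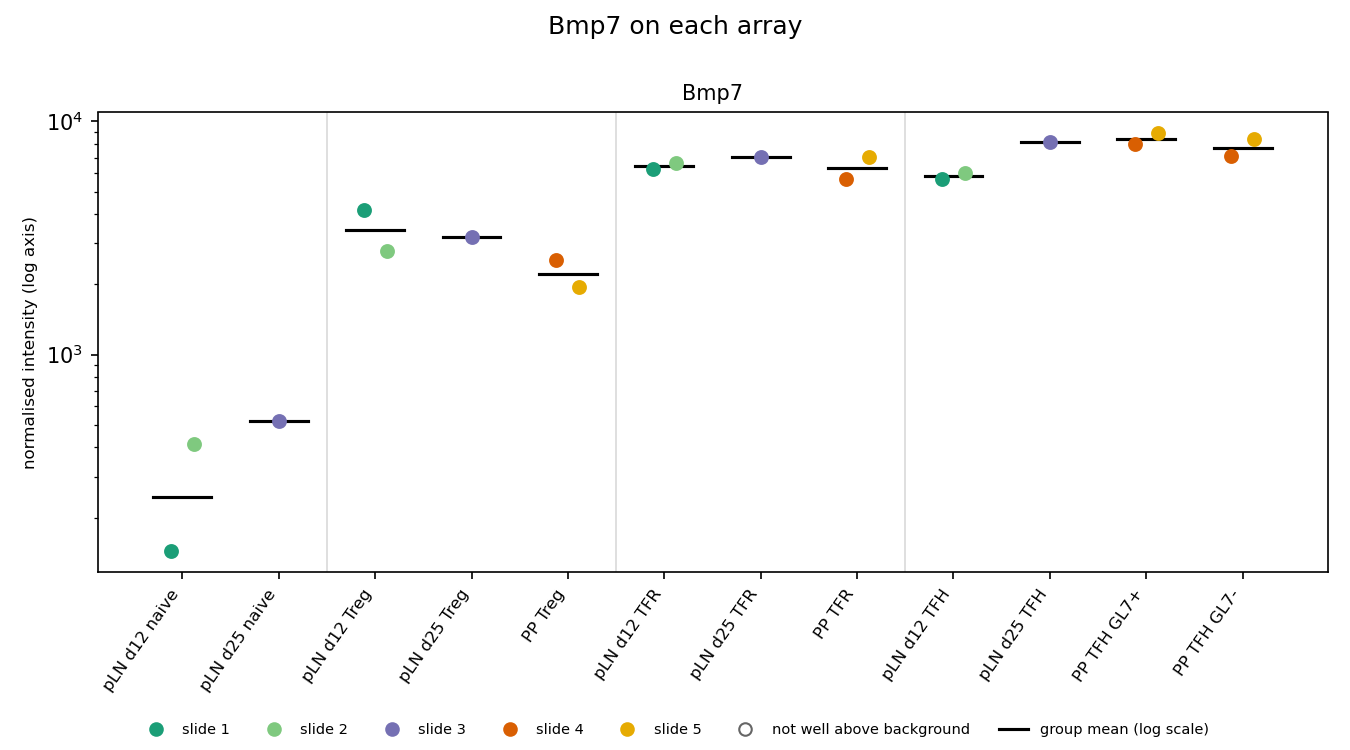
Normalised intensity (log axis) of Bmp7 on each of the 20 arrays, by group; points are arrays coloured by slide and bars are means on the log scale. Naive T cells sit between 144 and 521, Treg cells between 1951 and 4168, and TFH and TFR cells between 5644 and 8883.

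Acvr1, a type I BMP receptor, had its highest level in TFR cells of pLN, and was higher in pLN than in PP for each fraction present in both. Probe 1 was detected on all 20 arrays. In pLN TFR cells it read 1168 and 1386 at d12 and 1632 at d25, and in PP TFR cells 297 and 338. In pLN TFH cells it read 494 and 583 at d12 and 688 at d25, against 122 and 121 in PP GL7+ and 143 and 172 in PP GL7- TFH cells. Treg cells read 263 and 241 in pLN at d12, 287 at d25, and 68.8 and 73.3 in PP. Naive T cells read 73.3, 135 and 144. No pLN array of a fraction overlapped with the PP arrays of that fraction.

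The log2 difference between PP and pLN d12 with probe 1 was -2.01 (SE 0.26) for TFR cells, -2.14 (SE 0.26) for GL7+ TFH cells and -1.83 (SE 0.26) for Treg cells. Without slide 4 these were -1.91, -2.15 and -1.78. Each tissue still had the same order of fractions. TFR cells were above Treg cells on all 5 slides, by 4.31-fold to 5.75-fold, and above TFH cells by 2.36-fold to 2.79-fold (GL7+ TFH cells in PP).

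Probe 2 of Acvr1 followed probe 1 with smaller differences and a Pearson correlation of 0.879 over the 20 arrays. It read 497 and 396 in pLN d12 TFR cells and 196 and 144 in PP TFR cells, a log2 difference of -1.40 (SE 0.36), or -1.63 without slide 4. It was below background on 3 arrays, all of naive T or Treg cells of slides 2 and 3.

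Probe 3 did not follow the other 2. It sat at the floor of 20 on all 12 arrays of slides 1, 4 and 5, and was detected on all 8 arrays of slides 2 and 3, at 364 to 715, whatever the fraction. It failed the detection filter and carries no information on the groups. Of all 39429 probes, 206 had this pattern over the slides.

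Bmpr1a, a type I receptor, and Bmpr2, a type II receptor, were dim, with the 4 printed features of a probe varying by a median of 19.6% and 21.0%, against 4.89% for Acvr1 probe 1. Bmpr1a was detected on 10 of 20 arrays. It was detected on all 5 TFR arrays, at 77.5 and 134 in pLN d12 and 82.9 and 187 in PP, and the d25 TFR array lay above all of these. On TFH arrays it read 26.6 to 47.9 and was detected on 2 of 7, both on slide 5. On naive arrays it read 25.7 to 52.1 and was never detected. Treg cells lay between, at 57.0 to 115, with 3 of 5 arrays detected, and their range overlapped with that of TFR cells.

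By the bound that a group below background allows, pLN d12 TFR cells were at least 2.22-fold above TFH cells in Bmpr1a, and the d25 TFR array at least 1.92-fold above its TFH array. In PP, where 1 of 2 GL7+ TFH arrays was detected, the log2 difference was 1.57 (SE 0.45), or 1.97 without slide 4. TFR cells were above TFH cells on all 5 slides, but PP and pLN d12 TFR cells overlapped, with a log2 difference of 0.29 (SE 0.45). Without slide 4 this was 0.88, the remaining PP array lying above both pLN d12 arrays.

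Bmpr2 was detected on 15 of 20 arrays, and on no naive array. Naive T cells read 59.8 and 57.1 at d12 and 57.9 at d25. TFR cells read 120 and 206 in pLN d12, 253 at d25, and 185 and 252 in PP. TFR cells had the highest value of their slide on each of the 5 slides. pLN d12 Treg cells, at 82.3 and 144, were at least 1.46-fold above naive T cells. In PP, TFH, Treg and TFR cells read 96.9 to 168, 152 to 163 and 185 to 252. The log2 difference between TFR and GL7+ TFH cells was 0.82 (SE 0.39) in PP, or 1.33 without slide 4, and between TFR and TFH cells 1.00 (SE 0.39) in pLN d12. The ranges of PP and pLN d12 TFR cells overlapped, but the slide 5 array was above both pLN d12 arrays, by 0.68 (log2) over their mean.

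**Figure D3:**
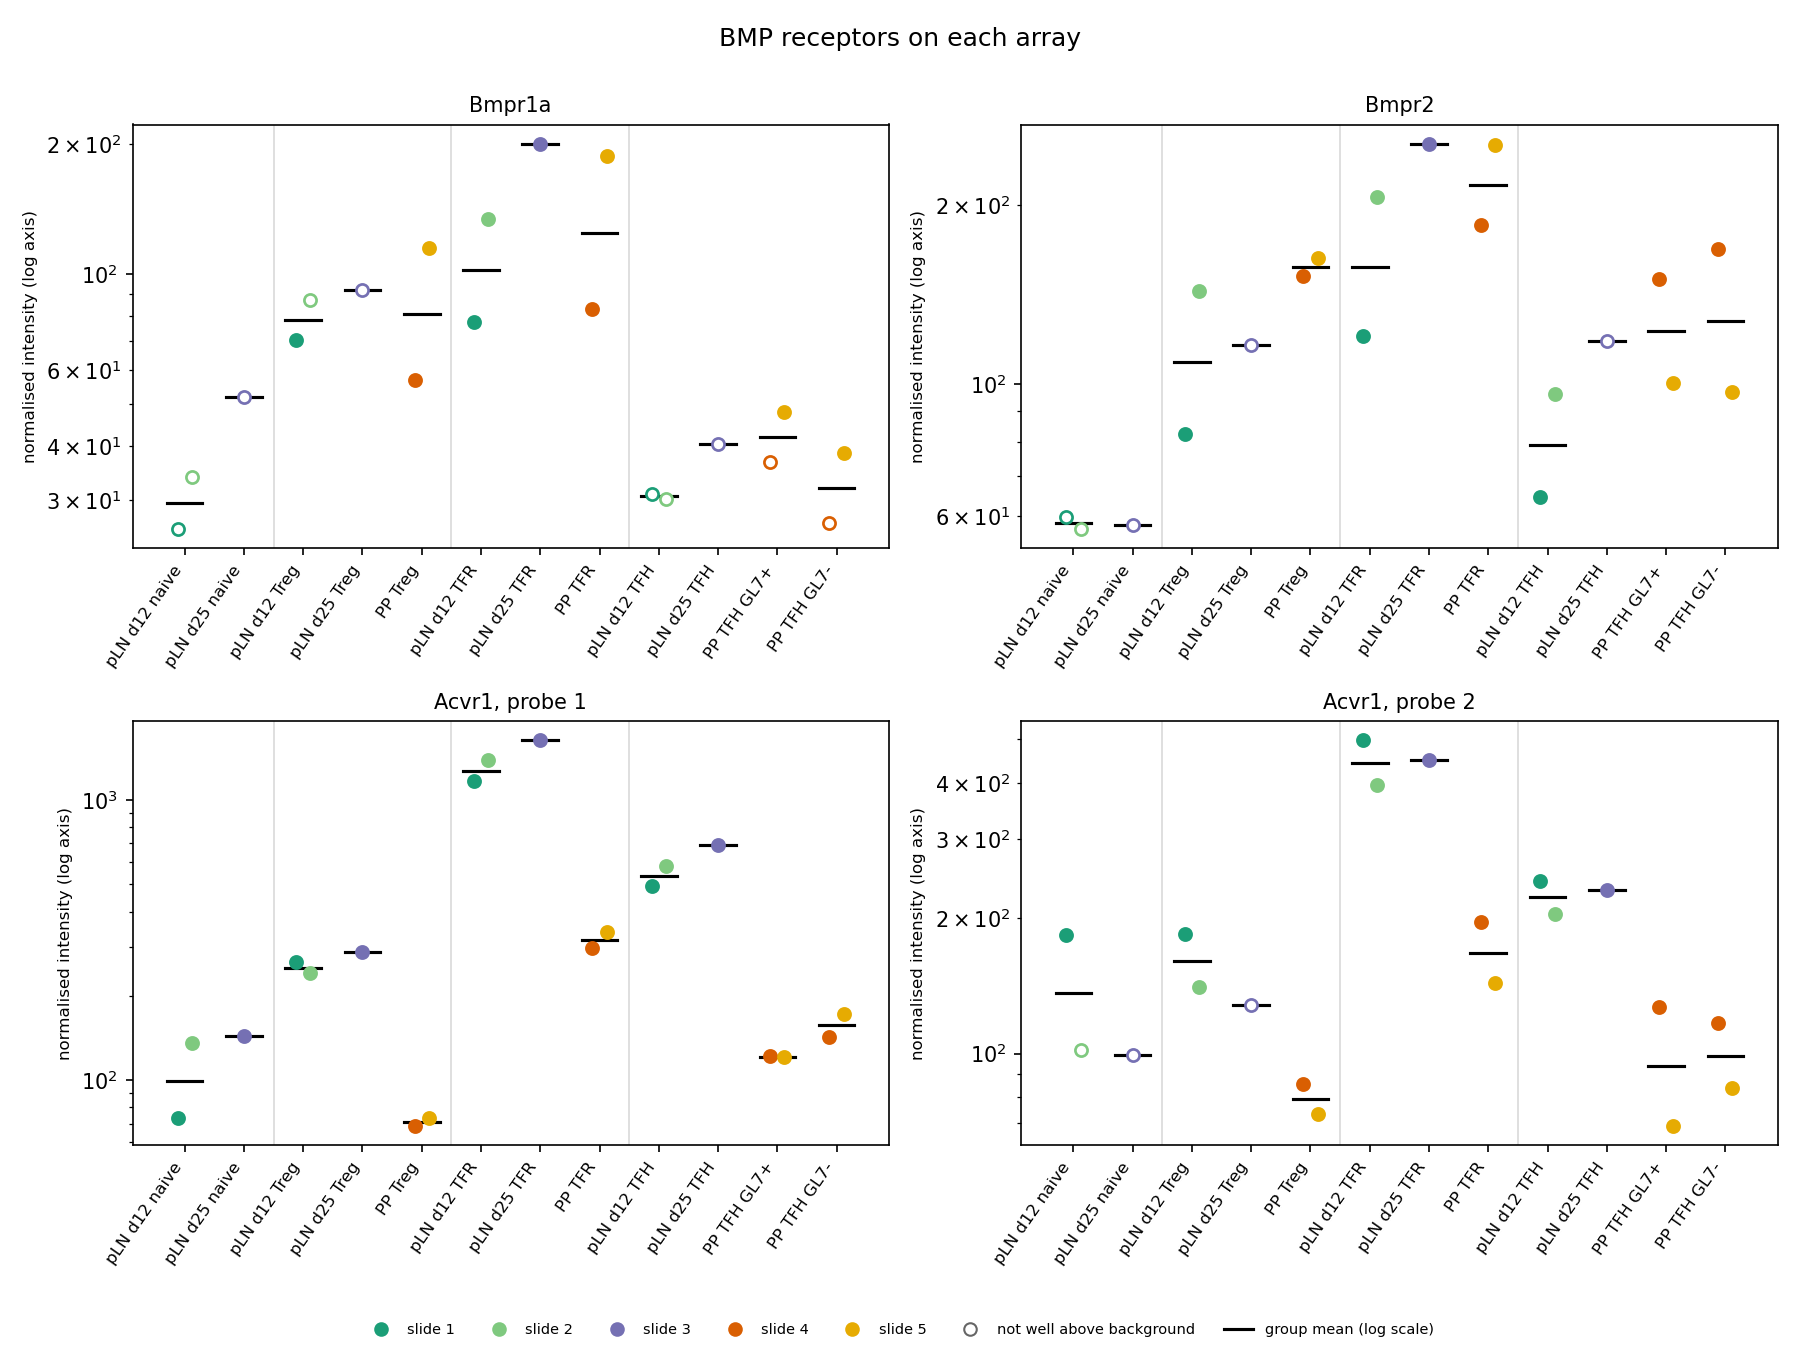
Normalised intensity (log axis) of Bmpr1a, Bmpr2 and the 2 concordant Acvr1 probes on each of the 20 arrays, by group; points are arrays coloured by slide, open points were not well above background, and bars are means on the log scale. Acvr1 is highest in pLN TFR cells, at 1168 to 1632 with probe 1, and Bmpr1a and Bmpr2 stay at or below 253 on all arrays.

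Of the WNT co-receptors, Lrp5 was detected on every array. It read 1940 to 3293 on slide 1 and 2995 to 3357 on slide 4, both made from 50 ng of RNA. It read 1207 to 1883, 1328 to 2055 and 1108 to 1519 on slides 2, 3 and 5, made from 40 ng. In all 8 groups of 2 arrays the array from 50 ng was the higher, by a median log2 difference of 0.98. Of all tested probes, 20.9% were higher and 19.1% lower on the 50 ng array in all 8 groups, and the part of RNA input in the Lrp5 reading was not tested. Group ranges overlapped for all 10 differences between groups of 2 arrays.

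Within slides, Lrp5 still had an order in pLN: naive T and Treg cells stood above TFH and TFR cells on slides 1, 2 and 3, with 3293 and 2697 against 1940 and 2142 on slide 1, 1883 and 1880 against 1207 and 1315 on slide 2, and 2055 and 1953 against 1534 and 1328 on slide 3. In PP, Treg cells had the highest Lrp5 reading of their slide on both slides. On slide 4 they read 3357, with the other fractions at 2995 to 3085, and on slide 5 they read 1519, against 1292 in GL7+ TFH, 1127 in GL7- TFH and 1108 in TFR cells.

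Lrp6 was detected on every array by both probes, whose correlation over the 20 arrays was 0.480. Probe 1 was lower on the 50 ng array in all 8 groups, by a median log2 difference of -0.76, whereas probe 2 was higher in 5 of 8. Probe 1 read 591 and 777 in pLN d12 TFR cells and 156 and 303 in PP TFR cells, a log2 difference of -1.64 (SE 0.57), or -1.16 without slide 4. With probe 2 the log2 difference was -0.38 (SE 0.37), or -0.56 without slide 4. Probe 2 read 270 to 395 in naive T cells and 144 to 239 in TFR cells, without overlap, and TFH and Treg cells overlapped with both. TFR cells had the lowest probe 1 reading of their slide on slides 2 to 5, but not on slide 1, where TFH cells with 485 and Treg cells with 530 were below the 591 of TFR cells.

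**Figure D4:**
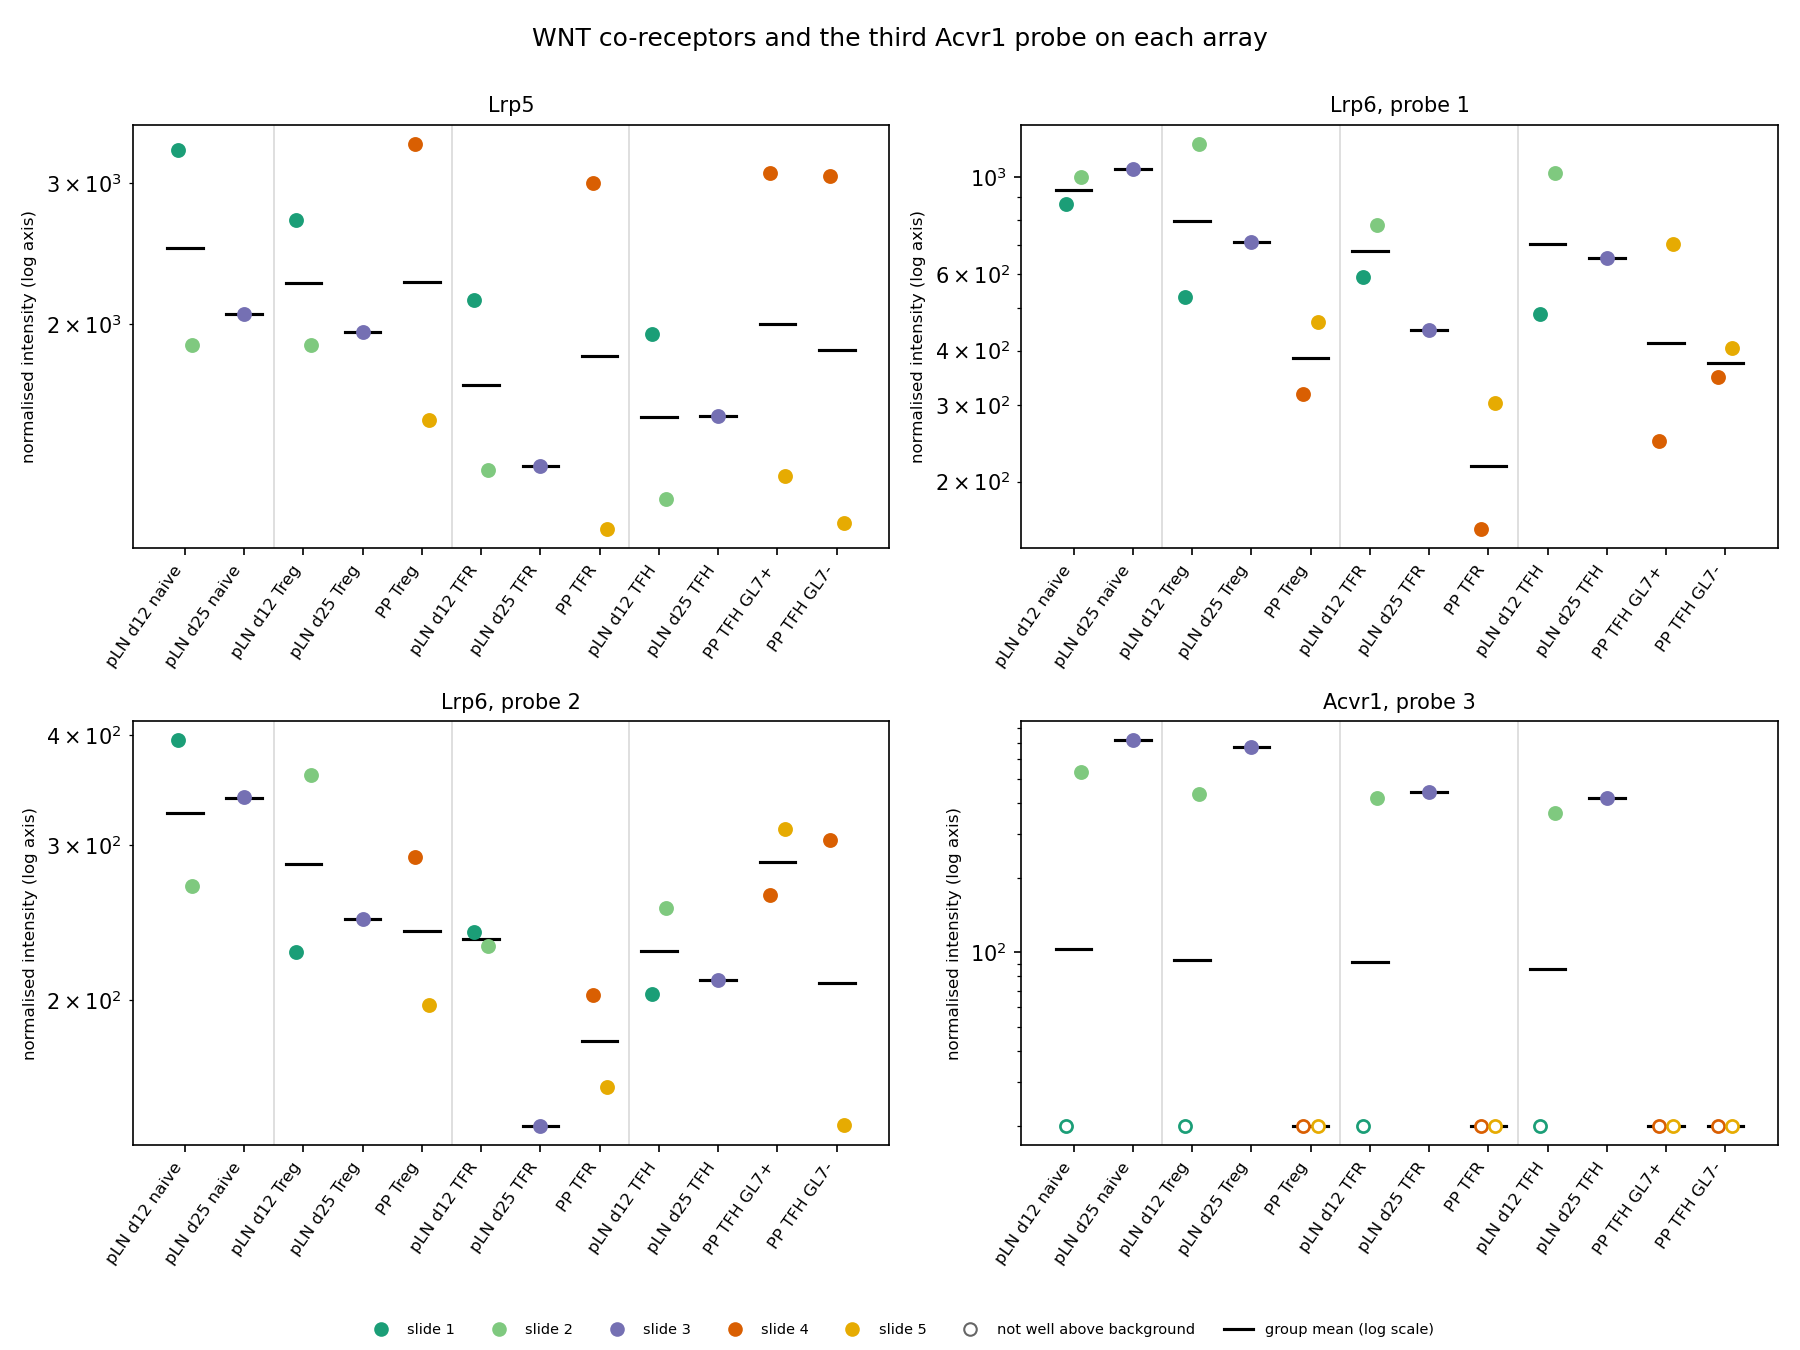
Normalised intensity (log axis) of Lrp5, the 2 Lrp6 probes and the third Acvr1 probe on each of the 20 arrays, by group; points are arrays coloured by slide, open points were not well above background, and bars are means on the log scale. Lrp5 sits at 2995 to 3357 on slide 4 and at 1108 to 1519 on slide 5, and the third Acvr1 probe is at the floor of 20 on slides 1, 4 and 5.

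The genes whose group means ran most like those of Sostdc1 probe 1 over the 12 groups, among 4627 probes with a range of at least 2 on the log2 scale, were Bcl6, the transcription factor that defines follicular T cells, Il21 and Il4, both cytokines of TFH cells, and Cmss1, Morn1, Gm8075, Rnf157 and Smco4. Their Pearson r ran from 0.980 to 0.990. Il21 was at the floor of 20 in pLN d12 Treg cells and at 17246 in pLN d12 TFH cells, and Bcl6 ran from 3898 to 60929. For Bmp7 they were Dcxr, Zdhhc2, Plcl1, Osbpl3, Ly6m, Sh3rf1, Endod1 and 6330403K07Rik, with r from 0.967 to 0.980. Being picked for likeness to Bmp7, all 8 of these shared its lowest group, pLN d12 naive T cells, and had their highest group mean in TFH or TFR cells.

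The other genes of the BMP and WNT pathways were read from 10 lists of 134 genes, of which 70 were tested with limma. A pathway gene counts here as risen or fallen at a Benjamini-Hochberg adjusted p below 0.05 with a log2 difference of 1 or more in size. The share of all 14321 genes that met the same rule is given in brackets as the background. From naive T to TFH cells in pLN d12, 6 of the 70 rose (background 11.0%) and 15 fell (background 6.53%), with a median log2 difference of -0.42 over the lists and -0.09 over all probes. The total of 21 was 15 to 22 with 1 array left out. Of 9 tested receptors and coreceptors of the BMP and activin family, 4 fell, of which Eng lost its call without naive replicate 1 or TFH replicate 2. Acvrl1, a type I receptor, fell from 5349 ± 636 (SD, n = 2) to 261 ± 80.2 (SD, n = 2), a log2 difference of -4.39 (SE 0.29, adjusted p = 6.92e-06 by limma). Of 6 tested SMAD and SMURF genes, 4 fell, Smad7, an inhibitory SMAD, by 4.61 on the log2 scale (SE 0.84). Without naive replicate 1 or without TFH replicate 2, Smad7 was the 1 call left of these 4. Of 6 tested BMP target genes 2 rose: Id1, from 126 ± 21.9 (SD, n = 2) to 1833 ± 1194 (SD, n = 2), and Hey1, which was below background in naive T cells and at least 14.3-fold higher in TFH cells. Fst, a secreted antagonist of activins and some BMPs, was at the floor in naive T cells and at least 10.8-fold higher in TFH cells (limma adjusted p = 1.12e-06). Ryk, a WNT receptor, was at least 39.9-fold higher.

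From naive T to Treg cells in pLN d12, 8 rose (background 3.71%) and 5 fell (background 1.1%). Without Treg replicate 1 the calls of Acvrl1, Dkkl1, Hey1, Lef1, Rgmb, Tcf7 and Wnt10a were lost. From Treg to TFR cells, 6 rose (background 7.38%) and 8 fell (background 3.11%) in pLN d12, and 5 rose (background 7.72%) and 8 fell (background 3.64%) in PP. The medians over the lists were -0.14, -0.27 and -0.05, against -0.03, -0.08 and -0.05 over all probes. Acvrl1 fell in both TFR comparisons, by 2.37 in pLN d12 and 1.90 in PP on the log2 scale (SE 0.29). Acvr1c, a type I receptor of the activin family, fell to the floor of 20 in both. Lef1 fell by 1.71 (log2, SE 0.25) in PP and by 1.34 (SE 0.25) in pLN d12, where the call was lost without Treg replicate 2 or TFR replicate 2. One of the calls in pLN d12, Cd44, came from 1 of 3 probes that was below background in both groups. In pLN d12 the calls of Acvr1b, Cd44, Fzd6, Hey1, Neo1, Sfrp2 and Tcf7l1 were lost when TFR replicate 1, TFR replicate 2 or Treg replicate 2 was left out. In PP the calls of Hey1, Myc, Neo1, Sfrp2, Wnt3 and Znrf3 were lost without slide 4.

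From TFH to TFR cells, 5 rose (background 3.55%) and 3 fell (background 2.7%) in pLN d12, and 3 rose (background 3.08%) and 5 fell (background 1.31%) in PP against GL7+ TFH cells. The 8 calls in pLN d12 became 5 without TFH replicate 1 or without either TFR array. In PP the falls of Cd44, Lef1, Tcf7 and Wnt10a lost their calls without slide 4. The fall of Fst and the rises of Dkkl1, Fzd4 and Fzd6 kept theirs. The medians over the lists were 0.00 and -0.10, against 0.01 and -0.05 over all probes. Fst fell in both tissues. It was at the floor in pLN d12 TFR cells, at least 12.1-fold below TFH cells, and read 95.2 ± 26.5 (SD, n = 2) in PP TFR cells against 1130 ± 45.8 (SD, n = 2) in PP GL7+ TFH cells. Id1 fell in pLN d12, by 4.35 on the log2 scale (SE 0.39), and its difference of -1.51 in PP had a limma adjusted p of 0.0694. Whether the 2 tissues differ in this was not tested. Dkkl1, a relative of the secreted WNT inhibitors of the Dickkopf family, rose by 2.54 (log2, SE 0.28) in pLN d12 and 2.21 (SE 0.28) in PP. Fzd6, a Frizzled receptor, rose in both tissues, by 2.48 (log2, SE 0.29) in pLN d12 and at least 10.9-fold in PP.

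Between tissues, 4 pathway genes were higher in PP (background 2.4%) and 2 lower (background 0.587%) in Treg cells, 7 higher (background 3.18%) and 2 lower (background 2.86%) in GL7+ TFH cells, and 11 higher (background 7.49%) and 4 lower (background 6.6%) in TFR cells. The medians over the lists were 0.02, 0.21 and 0.31, against -0.05, 0.03 and 0.00 over all probes. Wnt10a, a WNT ligand, was at least 58.9-fold lower in TFR cells of PP (limma adjusted p = 0.00107). Fst was at least 1.70-fold higher and Tcf7 higher by 1.36 (log2, SE 0.21) in the same cells. These 3 calls held without slide 4 and without each array in turn. Without pLN d12 TFR replicate 2 the calls of Acvr1b, Acvr2a, Bcl9, Bmp4, Cd44, Dvl2, Hey1 and Wnt3 in TFR cells were lost. Of the 9 calls in TFH cells, only that of Smurf2 held without slide 4, and all were lost without PP GL7+ TFH replicate 2. Dvl2 and Znrf3 lost their calls with each array left out in turn. The 6 calls in Treg cells became 1 when any 1 of the pLN d12 and PP Treg arrays was left out. GL7+ and GL7- TFH cells of PP differed in 0 of 70 pathway genes by limma (background 0.0% higher and 0.014% lower), and in 3 at an unadjusted p below 0.05. Without slide 4 the count was 1.

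**Figure D5:**
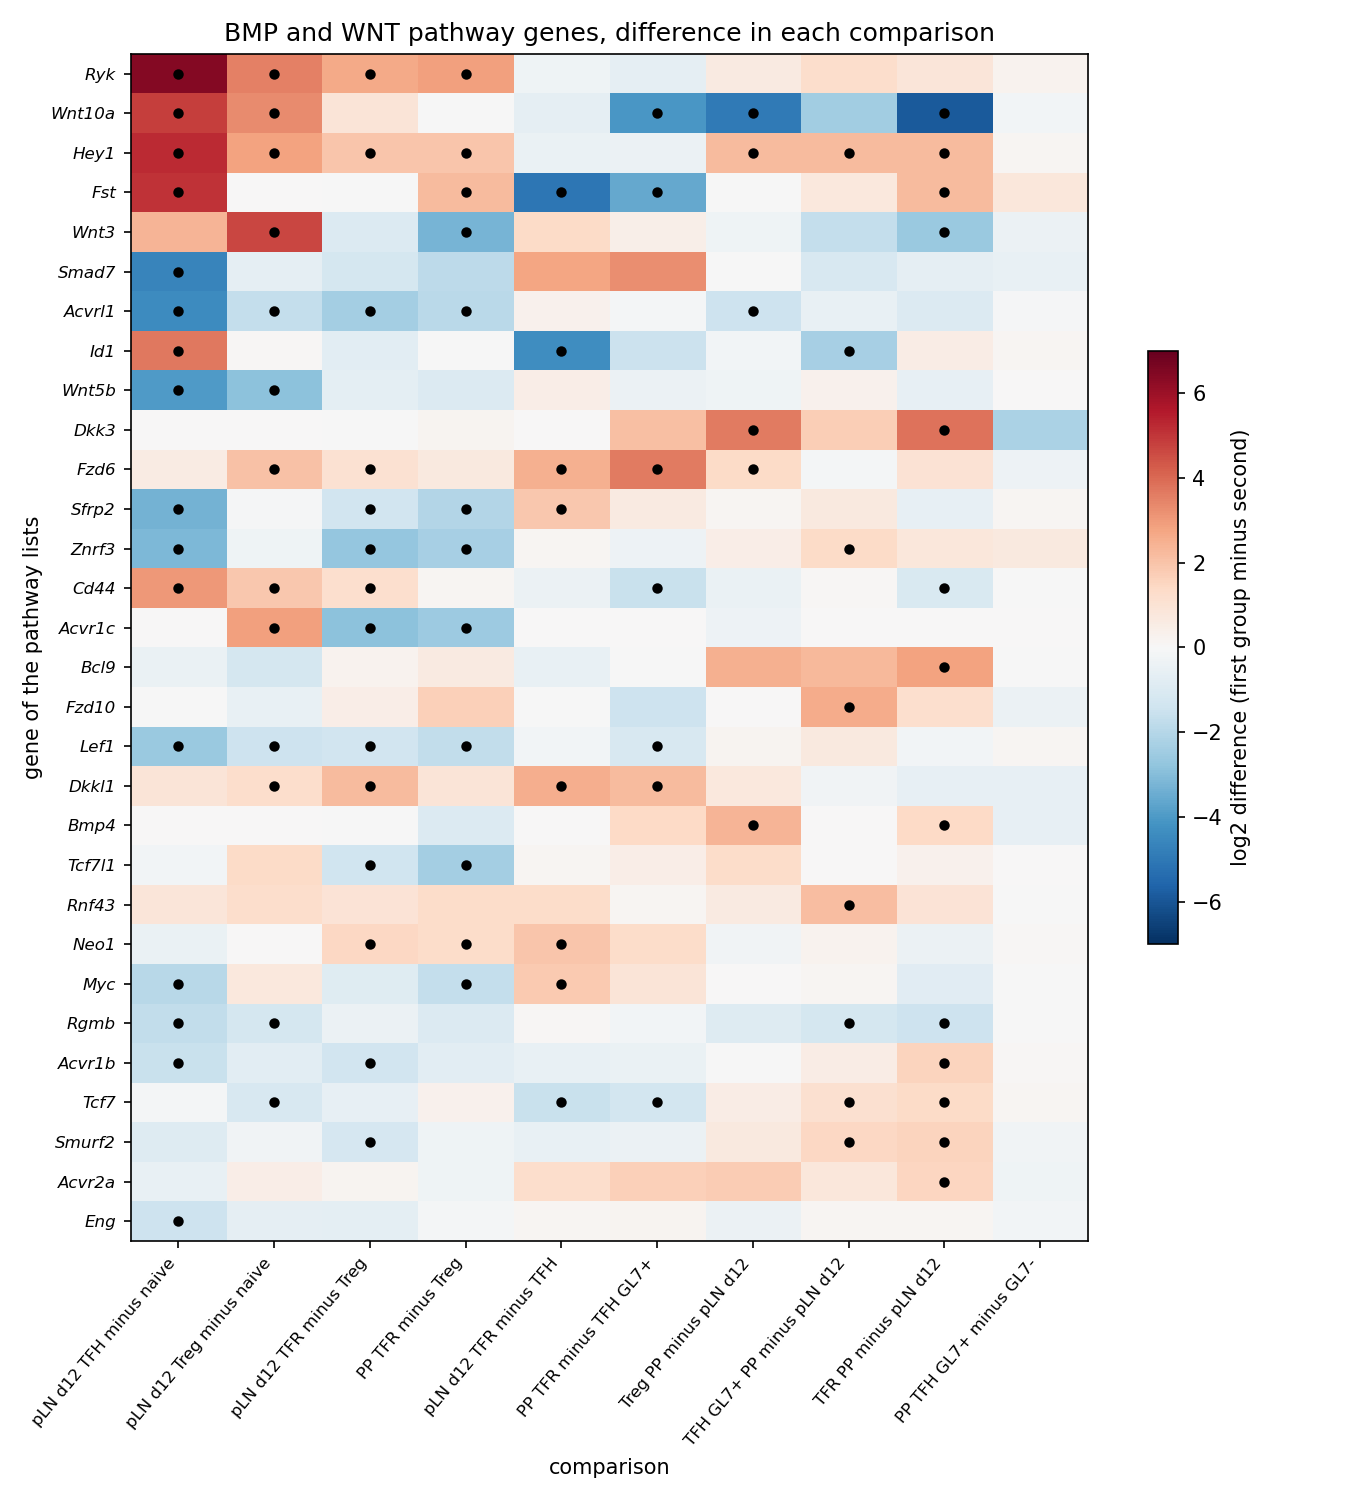
Log2 difference (colour, first group minus second) of the 30 named BMP and WNT pathway genes in the 10 comparisons of groups with 2 arrays; black dots mark the differences that met the rule for a call. Ryk, Hey1, Fst and Id1 are higher in TFH than in naive T cells of pLN d12, Acvrl1 and Smad7 are lower, and the comparison of GL7+ with GL7- cells has 0 dots.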

How the data were processed

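RNA of 20 sorted samples was read on 20 one-colour Agilent arrays with every probe printed 4 times. The authors extracted features with Agilent Feature Extraction 10.7.3.1 (submitters' processing notes). The deposited scanner files hold feature intensity on a linear scale, background-subtracted and detrended by that software. The authors' series matrix holds intensity per probe, averaged over features, with quantile normalisation, a 75th percentile set to 1500 and a floor of 20.

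Values were rebuilt from the scanner files in the same way: features marked as outliers, outside 1.42 interquartile ranges or with a pixel coefficient of variation above 0.5 were left out, and the geometric mean went through the same quantile normalisation (limma 3.58.1, R 4.3.3), scaling and floor before log2. The median absolute distance to the authors' table was 0.0347 to 0.0362 (log2) per array. Detection covered 43.0% to 58.0% of 39429 probes, without saturation. Local background had a median of 24 to 78, except 268 on pLN d12 TFR replicate 2. Detected probes reached down to 20 to 144, and levels under that are not resolved. The number of arrays limits the precision.

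Groups follow the labels. One limma model (lmFit and eBayes) with a mean for each of 12 groups was fitted to all 20 arrays. It had no term for slide and left 8 residual degrees of freedom. The d25 groups are assumed to vary like the others. P-values are two-sided and Benjamini-Hochberg adjusted over 22264 probes. The model was tested before use on simulated data with independent noise on each array. Those data held no slide effect, so that test does not cover false calls from slides. A gene was called when at least 1 probe was called and none the other way. A fold against a group with no detection is a bound, for which each dim array takes the higher of its own value and the faintest detected intensity on that array (means of log2 values). Gene symbols were matched to a RefSeq table by accession for 27508 probes, and otherwise taken by symbol or synonym.

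Named pathway genes were those called in at least 1 of 10 comparisons, 30 at most by size; genes alike were the 8 with the highest Pearson r. The members and lists were chosen with earlier results of these data known. Alternatives were the authors' values, scaling without quantile normalisation, normexp background, no detection filter, only the compared groups, slide as a block, slide 4 left out, each array left out and the brightest probe deciding. The scanner files' sequence column gave the probe sequences; promoter and protein sequences of Sostdc1 and Bmp7 were not used here.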

Additional observations from a re-analysis of the deposited data

Results flagged for a closer look

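In 5 cases the difference between 2 fractions had 1 sign on both pLN d12 slides and the other sign on both PP slides. Several of these differences were small, and the change of sign was not tested. The share of all probes with such a change of sign is not given, so the number of cases is not read as a result. Bmp7 was higher in TFR than in TFH cells by 0.15 and 0.14 (log2) in pLN d12 and lower by -0.50 and -0.34 in PP, so that the effect differed by -0.568, and the d25 slide had -0.22, the sign of PP. Lrp5 had 0.14 and 0.12 in pLN d12 against -0.04 and -0.22 in PP for the same fractions, an effect difference of -0.266, with -0.21 at d25. For Wnt5b the same 2 fractions gave an effect difference of -0.832, but it was above background on only 1 of 2 arrays of each in pLN d12 and on neither array at d25, so its direction in pLN is not resolved. Tcf7 was lower in TFR than in Treg cells of pLN d12, by -0.55 and -0.61, and d25 had -0.25. In PP it was higher by 0.49 on slide 4 and by 0.07 on slide 5, an effect difference of 0.863. Smurf2 was lower in TFH than in Treg cells of pLN d12, by -0.76 and -0.53, and d25 had -0.25. In PP its GL7+ TFH and Treg cells were close, with 0.18 on slide 4 and 0.08 on slide 5. The effect difference was 0.777.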

How the results depend on the processing

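Of 86 alternative values per member, those within 1 SD between replicates of the reported log2 difference numbered 79 for Sostdc1, 80 for Bmp7, 71 for Bmpr1a, 83 for Bmpr2, 74 for Acvr1, 86 for Lrp5 and 78 for Lrp6. The sign differed from the reported one in 6 for Sostdc1, 3 for Bmp7, 9 for Bmpr1a, 3 for Bmpr2, 0 for Acvr1, 19 for Lrp5 and 6 for Lrp6, and 2 of these, both of Sostdc1 in Treg cells between tissues, were of a reported difference of at least 1 in size. With the normexp background the Sostdc1 difference of pLN d12 TFR from Treg cells was 3.02 (log2) in place of 4.19, and the Bmp7 differences of TFH and Treg from naive T cells were 4.14 and 3.37. Without slide 4 Sostdc1 in PP TFR against Treg cells was 9.20, and 6.77 to 9.44 with 1 array left out. Its PP against pLN d12 difference in Treg cells was -0.20 without slide 4, and -0.20 to 2.47 with 1 array left out, the low end without PP Treg replicate 1 and the high end without replicate 2. Bmp7 against naive T cells ran from 3.81 to 5.34 in TFH and from 3.04 to 4.57 in Treg cells, the ends of both being set by which naive array was left out.

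The pathway calls rested on the spread shared by all 20 arrays. When only the compared groups were fitted, calls were 9 for TFH against naive T cells, 2 for TFR against Treg cells in pLN d12, 3 for TFR cells between tissues, and 0 for Treg against naive T, PP TFR against Treg, both TFR against TFH comparisons, and Treg and TFH cells between tissues. That fit has 2 residual degrees of freedom. TFR against Treg cells of pLN d12 had 9 calls with normexp and 8 with no detection filter, and Treg cells between tissues had 3 with no detection filter. Slide as a fixed block gave 14 (pLN d12) and 15 (PP) calls for TFR against TFH cells, and as a random block 2 for Treg and 4 for TFH cells between tissues. Without slide 4 calls were 8 for PP TFR against Treg, 3 for TFH cells between tissues and 1 for GL7+ against GL7- cells. With 1 array left out calls ran from 7 (without Treg replicate 1) to 11 for Treg against naive T, from 5 (without TFR replicate 2) to 11 for TFR against Treg and from 5 (without TFH replicate 1) to 6 for TFR against TFH in pLN d12. Between tissues they ran from 1 (without pLN d12 Treg replicate 1) to 4 in Treg, from 0 (without PP TFH GL7+ replicate 2) to 4 in TFH and from 8 (without pLN d12 TFR replicate 2) to 12 in TFR cells. The counts of calls in this section are totals of each fit and can include genes not called in the main fit. Left-out arrays leave a lone array that is assumed to vary like the others. The causes were not tested.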

Other observations

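The third Acvr1 probe was 1 of 206 probes, 0.522% of 39429, that were detected on all 8 arrays of slides 2 and 3 and on none of the 12 arrays of slides 1, 4 and 5. The reverse pattern, detected on all 12 arrays and on none of the 8, was held by 561 probes. Slides 2 and 3 hold pLN samples made from 40 ng of RNA, of different days after immunisation, and slide 1 holds pLN samples made from 50 ng.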
